A study of Homo sapiens with 9 samples.

Results

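The genes described here are the small nucleolar RNA (snoRNA) genes and their named host genes in LAN5 cells, taken from the deposited expression table by symbol. Symbols beginning SNORA or SNORD followed by a digit, and symbols made of SNHG and a number, gave 106 of the 25084 listed genes: 61 SNORA, 18 SNORD and 27 SNHG. The 56 with at least 1 CPM (a gene's reads scaled so that each library has an equal total) in at least 3 of the 9 libraries are summarised, namely 24 SNORA, 9 SNORD and 23 SNHG genes. These 56 were chosen by their measured CPM, so being detected is no finding about them.

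LAN5 cells are a human neuroblastoma cell line in which the MYCN gene is amplified. Total RNA was sequenced 72 h after nucleofection, a form of electroporation, with siRNAs in 3 groups of 3 libraries: control (siCTR), targeting MYCN (siMYCN) and targeting HAND2 (siHAND2). The labels name 1 siRNA per target (siMYCN_2 and siHAND2_3), so an effect of a target and an effect of its particular siRNA cannot be told apart, and they do not say whether the 3 libraries of a group came from separate cultures. P-values then measure only the spread between these libraries, which may be technical. Both targets code for helix-loop-helix transcription factors.

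SnoRNAs guide chemical modification and cleavage of ribosomal RNA in the nucleolus. Box C/D snoRNAs (SNORD genes) direct methylation of ribose through the protein FBL, and box H/ACA snoRNAs (SNORA genes) direct conversion of uridine to pseudouridine through DKC1. Most human snoRNAs are cut out of introns of a host transcript, often that of a ribosomal protein or of a noncoding SNHG gene, whereas U3, the box C/D RNA needed to cut the precursor of ribosomal RNA, is made from genes of its own. MYC proteins are known activators of ribosome production.

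The snoRNAs on which the results turn are shown here 5′ to 3′, as the DNA letters of the GENCODE v44 transcripts of the same names. Capitals mark box C (TGATGA) and the last box D (CTGA) in the SNORD sequences, and the ACA that lies 3 bases from the end in SNORA73B. SNORD3A and SNORD3B-2 are gene copies of U3 whose values are set side by side in the results, and SNORD17 and SNORA73B are among the most abundant snoRNAs of the table.
SNORD3A: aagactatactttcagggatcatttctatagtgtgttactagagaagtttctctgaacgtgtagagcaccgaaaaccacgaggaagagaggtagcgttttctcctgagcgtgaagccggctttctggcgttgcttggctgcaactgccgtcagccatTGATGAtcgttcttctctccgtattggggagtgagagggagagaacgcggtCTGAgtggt
SNORD3B-2: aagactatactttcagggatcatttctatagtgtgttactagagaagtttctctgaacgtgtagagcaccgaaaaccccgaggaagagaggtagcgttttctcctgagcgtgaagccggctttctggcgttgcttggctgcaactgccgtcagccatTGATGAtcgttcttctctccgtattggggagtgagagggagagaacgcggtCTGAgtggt
SNORD17: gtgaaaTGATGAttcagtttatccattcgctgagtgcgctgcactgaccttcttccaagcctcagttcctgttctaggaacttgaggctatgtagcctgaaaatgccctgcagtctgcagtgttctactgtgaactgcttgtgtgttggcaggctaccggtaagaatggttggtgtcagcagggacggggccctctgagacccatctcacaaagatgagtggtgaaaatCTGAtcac
SNORA73B: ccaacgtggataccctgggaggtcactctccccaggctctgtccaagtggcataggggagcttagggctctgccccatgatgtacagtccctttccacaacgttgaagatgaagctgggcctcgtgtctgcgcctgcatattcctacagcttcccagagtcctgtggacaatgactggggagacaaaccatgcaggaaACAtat
Over the 217 bases of U3 shown, the only difference between SNORD3A and SNORD3B-2 is A78C (SNORD3A's base first, position counted from 1 at the 5′ end, then SNORD3B-2's base), and SNORD3B-1 is identical to SNORD3B-2 over these 217 bases. Of the 33 snoRNA genes that passed, 27 had a transcript of the same name, each as long as its span in the table. TGATGA was present in 7 of the 9 SNORD sequences and CTGA in 8 of 9. ACA lay 3 bases from the end in 11 of the 18 SNORA sequences.

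Depth was 21.0 M to 32.7 M reads per library, read from the size of the smallest CPM steps. The siRNA targets were set against the labels. MYCN averaged 1842 ± 54.2 CPM with siCTR, 1289 ± 47.0 with siMYCN and 914.5 ± 48.4 with siHAND2. HAND2 averaged 501 ± 13.7, 571 ± 15.9 and 272 ± 7.65 CPM (SD, n = 3 libraries each). MYCN was thus lower after either siRNA, and its level in siMYCN was still 70.0% of that in siCTR. MYCN was lowest in siHAND2, so its level does not single out siMYCN, whereas HAND2 was lowest in its own group. The neuroendocrine markers CHGA, CHGB, STMN2 and DBH ranged from 127 to 413 CPM over the 9 libraries, TH from 1.18 to 4.42 CPM, and EPCAM of epithelium from 2.79 to 3.95 CPM. PTPRC of blood cells and PECAM1 of endothelium did not exceed 0.071 CPM. CPM values are shares of a library, so fewer cells with a transcript and less of it per cell cannot be told apart.

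Of the 50 genes by name that did not pass, 46 were under 1 CPM in every library. Of the 56 that passed, 46 were at 1 CPM or more in all 9 libraries, and 1 passed through siCTR alone (SNHG26). Just inside the threshold, the third-highest of the 9 CPM values was 1.14 for SNORA21B, 1.20 for SNORA7A and 1.22 for SNHG19, and just outside it was 0.886 for SNHG27, 0.866 for SNORA57 and 0.854 for SNHG9. RefSeq lists 357 SNORD genes with a median length of 81 bases, 84.0% of them under 100 bases, and the 9 SNORD genes that passed were 104 to 237 bases long in RefSeq. Short box C/D RNAs are thus not among the 9. The 24 SNORA genes that passed had a median RefSeq length of 137.5 bases, beside 134 for the 182 SNORA genes of RefSeq. RefSeq snoRNA genes outside the 79 listed in the table were not analysed here.

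Replicate 3 stood apart for the snoRNAs in siCTR and siMYCN, and in siHAND2 mainly for the SNORD genes. In siHAND2 replicate 3 was the lowest library for all 9 SNORD genes and for 12 of 24 SNORA genes. It held the lowest of the 3 values for 32 of 33 snoRNA genes in siCTR, for 32 of 33 in siMYCN and for 21 of 33 in siHAND2, whereas over all 14495 genes tested replicate 3 was lowest for 34.3%, 24.9% and 32.8%. The median difference of replicate 3 from the mean of the other libraries of its group, in log2(CPM + 1), was -0.49 in siCTR, -0.44 in siMYCN and -0.23 in siHAND2. The CPM of the 33 snoRNA genes together were 1790.3, 1391 and 1166 in siCTR replicates 1, 2 and 3. They were 1238, 1247 and 832 in siMYCN and 1259, 1376 and 1089 in siHAND2. The groups therefore overlapped in this sum, with siCTR replicate 1 highest and siMYCN replicate 3 lowest. SNHG genes had no such library: replicate 3 was lowest for 4, 9 and 6 of 23 in the same groups, and their summed CPM ranged from 2374 to 2415 in siCTR, from 1957 to 2017 in siMYCN and from 2155 to 2358 in siHAND2. Among other short RNAs, 17, 19 and 17 of the 19 spliceosomal RNA genes tested were lowest in replicate 3 in siCTR, siMYCN and siHAND2. Several of these are near-identical copies that may share reads, which was not tested. The RNAs of Cajal bodies (SCARNA genes) were lowest there for 2, 9 and 4 of 10, and the other short RNAs listed for 2, 5 and 6 of 6, so in siCTR most genes of these last classes were lowest in another replicate. The part of replicate 3 in each snoRNA result was not tested beyond the values without it, which are given beside the counts.

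**Figure D1:**
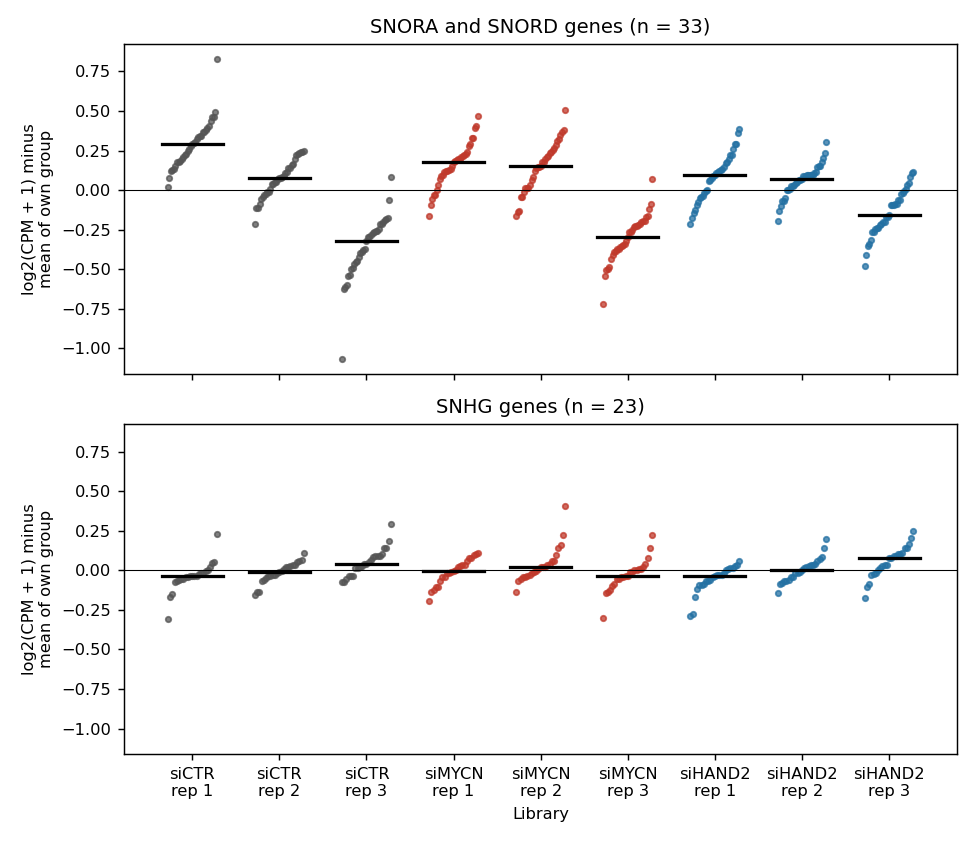
Each point is 1 gene in 1 library (x axis), and the y axis is log2(CPM + 1) minus the mean of the gene's own group, with a bar at the median, for 33 SNORA and SNORD genes (top) and 23 SNHG genes (bottom). Points of replicate 3 lie mostly below 0 in the top panel, for 32 of 33 genes as the lowest library in siCTR and in siMYCN, and not in the bottom panel.

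SNHG transcripts were lower after MYCN knockdown. Of the 23 SNHG genes tested, 14 fell, 1 rose (SNHG22) and 8 did not pass the test in siMYCN against siCTR (limma, Benjamini-Hochberg adjusted p under 0.05 over all 14495 genes tested). Over all genes tested, 35.9% were called, 24.5% as higher and 11.4% as lower. The median log2 fold change was -0.26 over the SNHG genes and 0.06 over all genes. In siHAND2 against siCTR, 11 fell, 1 rose (SNHG14) and 11 did not pass, where 29.9% of all genes were called, 18.1% as higher and 11.8% as lower. The median was -0.19, beside 0.04 for all genes. Both comparisons use the same 3 siCTR libraries, so their values are given side by side and not as independent results. SNHG26 passed the level filter only through siCTR and had to be lower elsewhere. It fell from 1.55 ± 0.247 CPM with siCTR to 0.697 ± 0.139 with siMYCN and 0.876 ± 0.0747 with siHAND2 (SD, n = 3 libraries each), and the siHAND2 change lost its call without siCTR replicate 3 (adjusted p = 0.0683).

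The most abundant transcripts of the SNHG group were SNHG14, SNHG29 and SNHG16. SNHG16, on chromosome 17 from 76557764 to 76565348 (GRCh38, plus strand), holds 3 box C/D snoRNA genes in its span, SNORD1A, SNORD1B and SNORD1C. It measured 607, 596 and 557 CPM with siCTR replicates 1, 2 and 3, 405, 383 and 397 CPM with siMYCN, and 481, 472 and 478 CPM in siHAND2. The 3 groups did not overlap, with siCTR highest and siMYCN lowest. Its log2 fold change was -0.57 (standard error 0.04, limma adjusted p = 8.24e-08) in siMYCN and -0.30 (standard error 0.04, adjusted p = 5.06e-05) in siHAND2.

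SNHG29, host of SNORD49A, SNORD49B and SNORD65, had the same order of groups. Its values were 552, 585 and 539 CPM with siCTR, 416, 444 and 389 CPM with siMYCN, and 480, 496 and 496 CPM with siHAND2. The changes were -0.42 (limma adjusted p = 6.13e-06) and -0.19 (adjusted p = 0.00815). The 3 groups did not overlap. Without siCTR replicate 2, the siHAND2 change was -0.15 (adjusted p = 0.0567).

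SNHG1, whose introns carry 8 box C/D genes (SNORD22 and SNORD25 to SNORD31), measured 125, 126 and 138 CPM with siCTR, 105, 110 and 102 CPM with siMYCN, and 120, 118 and 133 CPM with siHAND2. The siMYCN libraries lay below all others (log2 fold change -0.29, limma adjusted p = 0.000607), and the siHAND2 libraries overlapped siCTR (-0.07, adjusted p = 0.355). SNHG5, host of SNORD50A and SNORD50B, went from 127 ± 3.02 CPM with siCTR to 103 ± 0.821 with siMYCN and 110.2 ± 7.05 with siHAND2 (SD, n = 3 libraries each). Its changes were -0.29 (limma adjusted p = 0.000154) and -0.20 (adjusted p = 0.00365), and neither knockdown overlapped siCTR.

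SNHG3 and SNHG17 fell by similar amounts after both siRNAs. SNHG3, host of SNORA73A and SNORA73B, measured 21.8, 22.3 and 23.1 CPM with siCTR, 17.0, 15.2 and 15.4 CPM with siMYCN, and 14.5, 16.9 and 16.2 CPM with siHAND2. Its log2 fold change was -0.47 in either comparison (limma adjusted p = 7.38e-05 and 7.96e-05). SNHG17, which holds SNORA71A to SNORA71D, went from 38.0 ± 2.18 CPM with siCTR to 27.8 ± 2.87 with siMYCN and 29.5 ± 1.54 with siHAND2 (SD, n = 3 libraries each; -0.44 and -0.36). Between the knockdowns, siHAND2 minus siMYCN was 0.00 (standard error 0.07, limma adjusted p = 0.99) for SNHG3 and 0.08 (standard error 0.07, adjusted p = 0.417) for SNHG17. A p that misses the threshold does not show that the levels were equal.

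The other SNHG genes that fell in both comparisons were SNHG7, SNHG20, SNHG10, SNHG25 and SNHG26. SNHG7, host of SNORA17A and SNORA17B, went from 33.0 ± 0.807 CPM with siCTR to 27.3 ± 1.39 with siMYCN and 27.8 ± 0.478 with siHAND2 (SD, n = 3 libraries each; log2 fold changes -0.27 and -0.24). SNHG25, host of SNORD104 and SNORA50C, stood at 52.9% of the siCTR mean in siMYCN and 47.0% in siHAND2, from 2.70 ± 0.135 CPM (SD, n = 3 libraries) with siCTR. These percentages are of CPM means, whereas the log2(CPM + 1) scale of the fold changes (-0.64 and -0.71) understates changes near 1 CPM. The SNHG10 calls were near the threshold (limma adjusted p = 0.0254 and 0.0497), and the first was lost without siCTR replicate 2 or 3 or any 1 siMYCN library (0.0507 to 0.0821) and the second when any 1 library other than siHAND2 replicate 3 was left out (0.053 to 0.252).

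SNHG4 (-0.63), SNHG6 (-0.24) and SNHG15 (-0.25) also fell in siMYCN and did not pass in siHAND2, and SNHG12 fell in siHAND2 (-0.29, limma adjusted p = 0.018) and did not pass in siMYCN (-0.09). Between the knockdowns, the difference for SNHG15 was 0.06 (limma adjusted p = 0.584) and that for SNHG12 was -0.20 (adjusted p = 0.101). SNHG4 measured 4.55, 5.04 and 6.00 CPM with siCTR, 2.64, 3.65 and 2.76 CPM with siMYCN, and 3.32, 4.43 and 5.28 CPM with siHAND2. SNHG4 overlaps MATR3 on the same strand, and reads of the pair may be shared. The SNHG15 change in siMYCN lost its call without siCTR replicate 2 (adjusted p = 0.0629), without siCTR replicate 3 (0.102) or without siMYCN replicate 1 (0.0568). Its siHAND2 value of -0.19 was called under median-ratio rescaling (-0.23, adjusted p = 0.0299), without siCTR replicate 1 (-0.27, 0.0194), without siHAND2 replicate 3 (-0.27, 0.00863) and, in a setting added after seeing the data, without replicate 3 of all groups (-0.20, 0.0345). The SNHG12 change in siHAND2 lost its call without siCTR replicate 1 (0.0695), siCTR replicate 3 (0.0712) or siHAND2 replicate 2 (0.0798).

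A single SNHG gene rose in each knockdown. SNHG14, the long transcript of the imprinted region on chromosome 15 that spans 83 SNORD genes of RefSeq and overlaps UBE3A on the other strand, measured 548, 538 and 605 CPM with siCTR, 529, 571 and 636 CPM with siMYCN, and 585, 671 and 724 CPM with siHAND2. The siHAND2 and siCTR libraries overlapped, and the change of 0.22 (standard error 0.07, limma adjusted p = 0.0303) lost its call with median-ratio rescaling (0.18, adjusted p = 0.0661) and without any 1 of siCTR replicates 1 and 2 and siHAND2 replicates 2 and 3. SNHG22 overlaps MYO5B on the other strand and holds no RefSeq snoRNA. It went from 42.3 ± 1.44 CPM in siCTR to 53.0 ± 4.63 in siMYCN (SD, n = 3 libraries each), a log2 change of 0.32 (limma adjusted p = 0.00349) with no overlap, and measured 45.2 ± 5.00 CPM in siHAND2 (0.09, adjusted p = 0.413). Strand use in counting is not stated, so reads of overlapping partners cannot be told apart. The same holds for SNHG genes that fell: SNHG6 (MCMDC2), SNHG7 (DIPK1B), SNHG10 (GLRX5), SNHG12 (TRNAU1AP), SNHG29 (LRRC75A), SNHG4 (SIL1) and SNHG16 overlap genes on the other strand, and SNHG3 (RCC1), SNHG20 (SEC14L1) and SNHG5 (PKMP3) overlap genes on their own. SNHG8, SNHG11, SNHG19, SNHG21, SNHG30 and SNHG32 passed in neither comparison, with log2 values from -0.12 to 0.15 in siMYCN and from -0.14 to 0.01 in siHAND2. Of these, SNHG32 was called in siMYCN without siHAND2 replicate 3 (0.11, adjusted p = 0.0392), and SNHG8 under median-ratio rescaling (-0.16, 0.0342) and quantile normalization (-0.16, 0.0424).

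**Figure D2:**
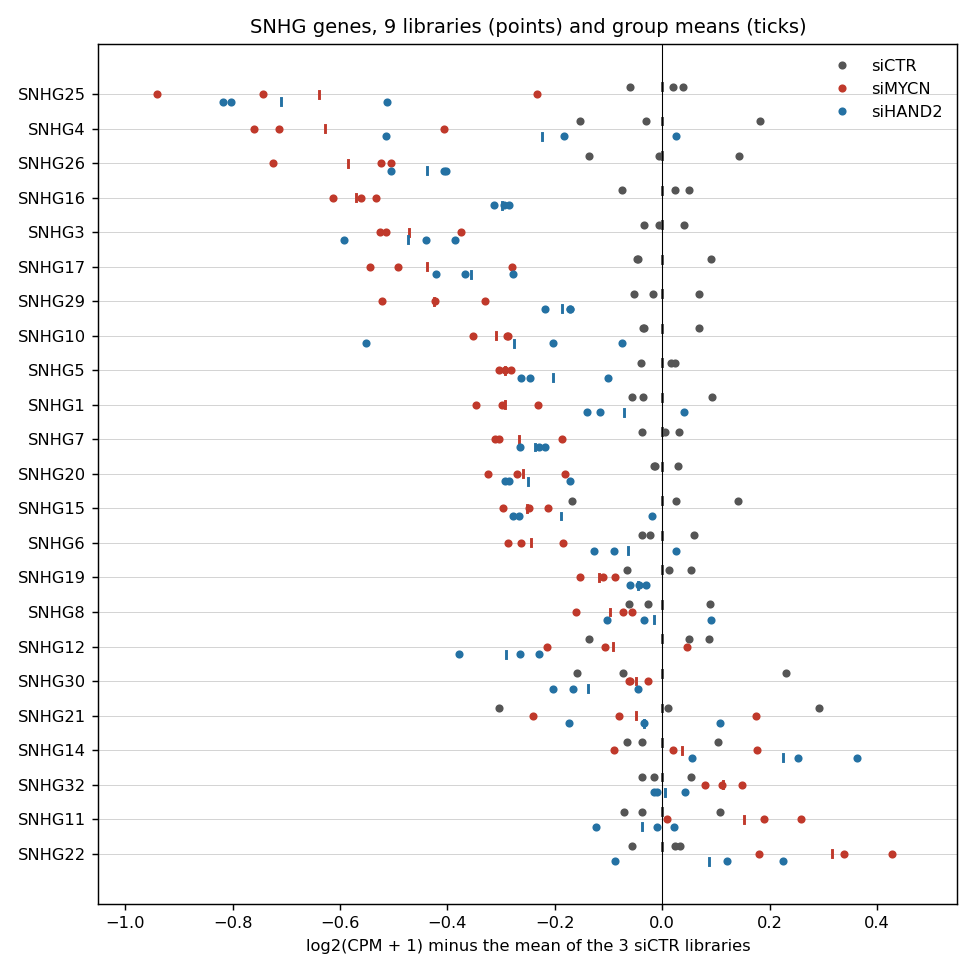
Each row is 1 SNHG gene, each point 1 library and each tick a group mean, on an x axis of log2(CPM + 1) minus the mean of the 3 siCTR libraries. SNHG16 shows 3 separate groups (mean changes -0.57 and -0.30), SNHG3 the same mean change of -0.47 in both knockdowns, and SNHG22 siMYCN points above all siCTR points.

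Set directly against siMYCN, the siHAND2 libraries had 5 SNHG genes higher (SNHG16, SNHG29, SNHG1, SNHG6 and SNHG4) and 1 lower (SNHG22), where 26.9% of all genes were called, 11.4% as higher and 15.5% as lower. The differences were 0.27 for SNHG16 (limma adjusted p = 0.00012), 0.24 for SNHG29 (0.00155), 0.22 for SNHG1 (0.00651), 0.18 for SNHG6 (0.0173) and 0.40 for SNHG4 (0.0397). For these 5 genes the level in siHAND2 thus lay nearer to that of siCTR than the level in siMYCN did. A link to the level of the MYCN transcript was not tested. SNHG4, SNHG6 and SNHG22 each lost this call without siMYCN replicate 1 or without siHAND2 replicate 3, which left 3 genes. SNHG4 also lost it without siCTR replicate 2, siMYCN replicate 3 or siHAND2 replicate 2, SNHG6 without siMYCN replicate 3, and SNHG22 without siMYCN replicate 2.

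Host genes outside the SNHG names were taken from a list of 39, chosen with earlier results of these data known. Of these, 23 were ribosomal protein genes, so the shares below describe this list and not snoRNA hosts in general. Among the 24 hosts found by position, described below, 14 fell and 1 rose in siMYCN. In siMYCN 37 of the 39 fell (94.9%, beside 11.4% of all genes) and none rose (median log2 fold change -0.41), and EIF4A2 (-0.10, limma adjusted p = 0.0959) and NAP1L4 (0.07, adjusted p = 0.219) did not pass. In siHAND2 27 fell (69.2%, beside 11.8% of all genes) and none rose (median -0.18). Between the knockdowns, 30 were higher in siHAND2 than in siMYCN (76.9%, beside 11.4% of all genes) with none lower (median 0.26). All 23 ribosomal protein hosts fell in siMYCN, 17 of them fell in siHAND2, and 22 were higher in siHAND2 than in siMYCN. RPL12, a protein of the large ribosomal subunit, measured 706, 751 and 693 CPM with siCTR, 475, 468 and 448 CPM with siMYCN, and 597, 603 and 639 CPM with siHAND2, with no overlap between the 3 groups. Its changes were -0.63 (limma adjusted p = 5.75e-08) and -0.22 (adjusted p = 0.00117). RACK1, a protein of the small subunit, went from 1642 ± 61.3 CPM to 1164 ± 9.16 and 1391 ± 22.4 CPM (SD, n = 3 libraries each).

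All 4 long noncoding hosts of that list fell in siMYCN, 3 of them fell in siHAND2, and 3 were higher in siHAND2 than in siMYCN. GAS5, whose introns hold many box C/D snoRNAs, measured 212, 215 and 213 CPM with siCTR, 145, 156 and 145 CPM with siMYCN, and 176, 178 and 200.3 CPM with siHAND2. The 3 groups did not overlap, and the changes were -0.52 (limma adjusted p = 1.1e-06), -0.21 (adjusted p = 0.00485) and, between the knockdowns, 0.31 (adjusted p = 0.000184). DANCR fell in both comparisons (-0.42 and -0.18), EPB41L4A-AS1 fell in both (-0.26 and -0.17, with 0.09 and an adjusted p of 0.31 between the knockdowns), and ZFAS1 fell in siMYCN (-0.40, limma adjusted p = 0.000317) with a value of -0.10 in siHAND2 (adjusted p = 0.329). The siHAND2 calls were lost for DANCR without any 1 siCTR library or siHAND2 replicate 1 (limma adjusted p from 0.0537 to 0.113), and for EPB41L4A-AS1 without siCTR replicate 1 or 2 or siHAND2 replicate 2 (0.0706 to 0.175).

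Of 22 genes for the proteins that bind, modify with or assemble snoRNAs, 14 fell and 1 rose in siMYCN (63.6% lower, beside 11.4% of all genes, median -0.19). These 22 were also chosen with earlier results of these data known. In siHAND2 10 fell and 1 rose (45.5% lower, beside 11.8% of all genes, median -0.16), and 8 of the 22 values lay above 0. FBL, the methyltransferase of box C/D particles, measured 135, 137 and 127 CPM with siCTR, 96.7, 89.2 and 94.5 CPM with siMYCN, and 112, 112 and 98.2 CPM with siHAND2. The groups did not overlap (log2 fold changes -0.50, limma adjusted p = 3.33e-06, and -0.31, adjusted p = 0.000455). The other box C/D core genes fell less in siMYCN (SNU13 -0.22, NOP56 -0.18 and NOP58 -0.16, differences from FBL not tested), and in siHAND2 SNU13 fell (-0.18) while NOP56 (0.01) and NOP58 (-0.04) did not pass.

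DKC1, the pseudouridine synthase of box H/ACA particles, measured 141, 144 and 139 CPM with siCTR, 108, 105 and 105 CPM with siMYCN, and 115, 112 and 112 CPM with siHAND2. Both knockdowns lay below siCTR with changes of -0.41 (limma adjusted p = 9.37e-07) and -0.32 (adjusted p = 9.83e-06). NHP2, a core protein of the same particles, fell by 0.36 and by 0.21 on the log2 scale, GAR1 fell in siMYCN (-0.24), and NOP10 passed in neither (-0.09 and -0.07). NOLC1, a nucleolar chaperone that binds these particles, went from 292 ± 6.26 CPM to 226 ± 4.74 and 237 ± 6.98 CPM (SD, n = 3 libraries each). RUVBL1 and PIH1D1, which take part in particle assembly, also fell in both (-0.23 and -0.24 for RUVBL1, -0.20 and -0.27 for PIH1D1). The single rises were PHAX, an export adaptor for small RNAs, in siMYCN (0.17, limma adjusted p = 0.0122), and COIL, the coilin of Cajal bodies, in siHAND2 (0.18, adjusted p = 0.0139). Under median-ratio rescaling and under quantile normalization PHAX was no longer called (0.11 in each, adjusted p = 0.0763 and 0.0691). Single libraries also decided PHAX (adjusted p = 0.0564 without siCTR replicate 2, 0.0515 without siMYCN replicate 3), COIL (0.0592 and 0.0547 without siCTR replicates 2 and 3), NOP58 in siMYCN (0.0755 without siCTR replicate 3, 0.0632 without siMYCN replicate 2) and GAR1 (0.0837 to 0.0923 without siCTR replicate 1 or 3 or siMYCN replicate 2 or 3). DKC1 and NOP56 are also snoRNA hosts and stand in both lists.

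Few of the snoRNA genes themselves passed the test in the main fit, and those that did against siCTR were lower. In siMYCN 7 of 33 fell and none rose, 21.2% beside the 35.9% called over all genes (11.4% as lower), with a median log2 fold change of -0.16. By class, 4 of 24 SNORA genes (SNORA17B, SNORA59B, SNORA73A and SNORA73B) and 3 of 9 SNORD genes (the U3 copies SNORD3A, SNORD3B-1 and SNORD3B-2) fell. In siHAND2 2 of 33 fell (SNORD3B-2 and SNORA59B) and none rose, with a median of -0.01. This was 6.06%, beside the 29.9% called over all genes (11.8% as lower). Between the knockdowns 1 was higher in siHAND2 than in siMYCN (SNORD3B-2), 3.03% beside 26.9% called over all genes (11.4% as higher). The siMYCN count was 3 without siCTR replicate 1, 4 without siCTR replicate 2, 12 without siCTR replicate 3 and 3 without siMYCN replicate 3. Without replicate 3 of all 3 groups, 11 fell in siMYCN and 6 in siHAND2, and 1 was higher and 1 lower in siHAND2 against siMYCN. With a term for replicate number in the fit, more were called in each comparison, as given at the end.

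**Figure D3:**
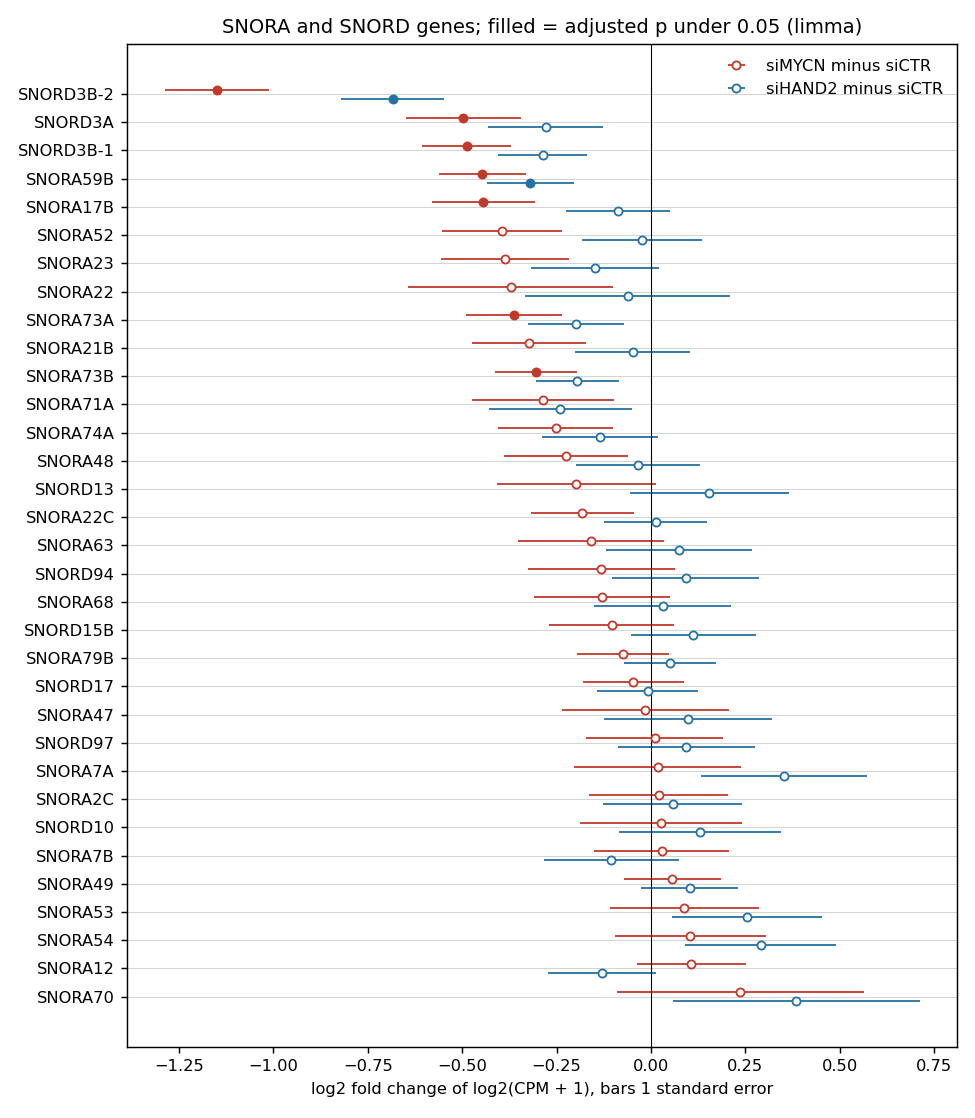
Rows are the 33 SNORA and SNORD genes that passed the level filter, and the x axis is the log2 fold change of log2(CPM + 1) with bars of 1 standard error, for siMYCN (red) and siHAND2 (blue) against siCTR. Filled points have a limma adjusted p under 0.05: 7 in siMYCN and 2 in siHAND2, all below 0, with SNORD3B-2 lowest in both.

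The 3 U3 copies held most of the snoRNA signal: without them the summed CPM of the other 30 snoRNA genes that passed ranged from 322 to 549.9 per library, of 832 to 1790.3 for all 33. SNORD3A, on chromosome 17 from 19188016 to 19188714 (GRCh38, plus strand), measured 1146, 829 and 717 CPM with siCTR replicates 1, 2 and 3, 723, 704 and 475 CPM with siMYCN, and 703, 833 and 650.5 CPM in siHAND2. Replicate 3 was the lowest library of each group, and siMYCN replicate 1 lay just above siCTR replicate 3. The siMYCN change was -0.50 (standard error 0.15, limma adjusted p = 0.0184), and it lost its call without siCTR replicate 1 (-0.31, adjusted p = 0.113) or without siMYCN replicate 3 (-0.30, adjusted p = 0.107). The call was also lost under quantile normalization (-0.42, adjusted p = 0.0679) and with no intensity trend in the fit (adjusted p = 0.0823). The siHAND2 value was -0.28 (adjusted p = 0.186), and without siCTR replicate 3 it was -0.43 (adjusted p = 0.0495) and without replicate 3 of all groups -0.35 (adjusted p = 0.015).

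SNORD3B-1 and SNORD3B-2 lie close together on chromosome 17 on opposite strands, from 19061912 to 19062669 (plus) and from 19063346 to 19064136 (minus). SNORD3B-2 measured 45.3, 34.0 and 32.4 CPM with siCTR, 18.9, 17.98 and 12.1 CPM with siMYCN, and 23.5, 24.5 and 19.9 CPM with siHAND2. The 3 groups did not overlap, with siMYCN lowest. Its changes were -1.15 (standard error 0.14, limma adjusted p = 8.85e-06) in siMYCN, -0.68 (adjusted p = 0.00127) in siHAND2 and 0.47 (adjusted p = 0.0185) between the knockdowns. The last lost its call without siMYCN replicate 3 (0.28, adjusted p = 0.0958) or siHAND2 replicate 2 (0.41, adjusted p = 0.0807).

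SNORD3B-1 measured 49.3, 39.5 and 33.9 CPM with siCTR, 31.1, 32.4 and 23.1 CPM with siMYCN, and 33.0, 34.4 and 31.5 CPM with siHAND2. The siMYCN libraries lay below all siCTR libraries (-0.49, limma adjusted p = 0.00407), and siHAND2 overlapped siCTR (-0.29, adjusted p = 0.0767; 0.0148 without siCTR replicate 3, 0.031 without siMYCN replicate 3 and 0.00168 without replicate 3 of all groups). The U3 parts of these copies, printed above for SNORD3A and SNORD3B-2, share all or all but 1 of 217 bases, and the spans given in the table (699, 758 and 791 bases) are longer than U3 and 99.2% to 99.6% identical to each other where aligned. How the authors' counting split reads among such copies is not stated, so the level of each copy is uncertain, and differences in fold change between the copies were not tested.

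**Figure D4:**
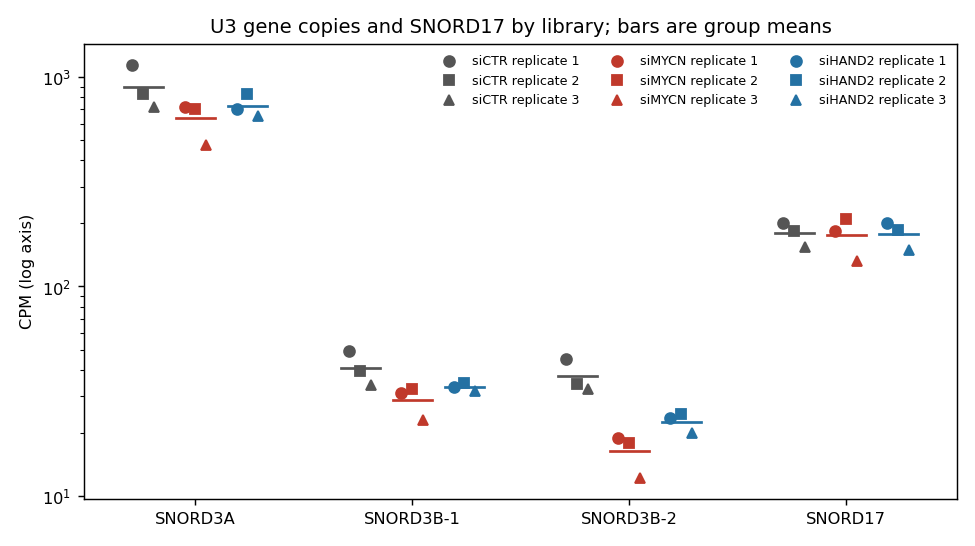
CPM (log axis) of the U3 gene copies and of SNORD17 in each of the 9 libraries, with markers for the replicate and bars at the group means. SNORD3B-2 separates the 3 groups (means 37.2, 16.3 and 22.6 CPM), whereas for SNORD17 the groups overlap (means 179, 176 and 178 CPM) and replicate 3 is lowest in each.

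SNORD17, a long box C/D RNA in an intron of SNX5, passed in neither comparison, and its difference from the U3 copies was not tested. It measured 201, 183 and 154 CPM with siCTR, 183, 211 and 133 CPM with siMYCN, and 200.2, 185 and 150.0 CPM with siHAND2, with full overlap of the groups. Its log2 values were -0.05 (standard error 0.13, limma adjusted p = 0.822) and -0.01 (standard error 0.13, adjusted p = 0.97). SNORD97, in EIF4G2, likewise gave 0.01 and 0.09 (standard error 0.18 for each) from 25.6 ± 6.60 CPM in siCTR (SD, n = 3 libraries). Their signs changed between settings.

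SNORA73A and SNORA73B, the longer RNAs also known as U17 that take part in processing of ribosomal RNA, were the most abundant SNORA genes. SNORA73A measured 105, 102 and 84.0 CPM with siCTR, 83.5, 85.8 and 58.6 CPM with siMYCN, and 89.4, 95.1 and 69.9 CPM with siHAND2. SNORA73B measured 58.7, 50.7 and 44.7 CPM, 44.7, 45.3 and 34.4 CPM, and 48.1, 48.0 and 38.0 CPM in the same order. For both, siMYCN overlapped siCTR through siCTR replicate 3. The siMYCN changes of -0.36 (limma adjusted p = 0.0349) and -0.30 (adjusted p = 0.0393) lost their calls without siCTR replicate 1 or 2 or without siMYCN replicate 3 (adjusted p from 0.0852 to 0.213 over the pair), and also with no filter on low values (0.0719 and 0.0771) or no intensity trend (0.116 for each). In siHAND2 the values were -0.20 and -0.19 (adjusted p = 0.262 and 0.196), and without replicate 3 of all groups both were called (-0.17 and -0.18, adjusted p = 0.019 and 0.0433).

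The other SNORA calls were in low transcripts. SNORA59B measured 2.05, 2.09 and 1.89 CPM with siCTR, 1.16, 1.15 and 1.32 CPM with siMYCN, and 1.26, 1.68 and 1.31 CPM with siHAND2, with both knockdowns below siCTR (-0.45, limma adjusted p = 0.00668, and -0.32, adjusted p = 0.0475). Its span in the table is 701 bases, longer than any SNORA of RefSeq, and it lies inside SLC47A1, which was also lower in siMYCN (-0.54). The siHAND2 call was lost when any of the siCTR libraries, any of the siMYCN libraries, or siHAND2 replicate 1 or 3 was left out. SNORA17B, in SNHG7, measured 3.33, 3.39 and 2.33 CPM in siCTR and 1.86, 2.49 and 1.52 CPM in siMYCN (-0.44, limma adjusted p = 0.0184). It lost its call without siCTR replicate 1 (adjusted p = 0.0765), siCTR replicate 2 (0.0862) or siMYCN replicate 3 (0.0965). SNORA63, SNORA79B, SNORA47 and SNORA48, the next most abundant, passed in neither comparison. SNORA48 stood at -0.23 in siMYCN (limma adjusted p = 0.309), and was called without siCTR replicate 3 (-0.44, adjusted p = 0.0309) and without replicate 3 of all groups (-0.34, adjusted p = 0.0448).

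Per 100 bases of span, the mean CPM over the 9 libraries was 108 for SNORD3A, 75.1 for SNORD17, 41.7 for SNORA73A, 22.5 for SNORA73B, 18.4 for SNORD97 and 12.1 for SNORA63. The SNORD3A value divides by a span of 699 bases, longer than the 217 of U3 itself, so its place in this order is uncertain. The other short RNAs of the table gave a comparison outside the snoRNA names: RMRP, the RNA of the endonuclease that cuts precursor ribosomal RNA, went from 8004 ± 187 CPM with siCTR to 6800 ± 673 with siMYCN and 7065 ± 815 with siHAND2 (SD, n = 3 libraries each; -0.24, limma adjusted p = 0.0297, and -0.19, adjusted p = 0.0959). The siMYCN call was lost without any 1 of the siCTR libraries (adjusted p from 0.0524 to 0.0911) or without siMYCN replicate 3 (0.163). Under quantile normalization the value was 0. That method gives the same rank the same value in all libraries, so it cannot show a change in a gene that keeps its rank. TERC, the telomerase RNA, which carries a box H/ACA domain, fell in both (-0.26, limma adjusted p = 0.00713, and -0.33, adjusted p = 0.00186). Of the 35 such genes tested, 4 fell and 2 rose in siMYCN, a share of 11.4% lower beside the same 11.4% over all genes. In siHAND2 2 fell and none rose, 5.71% lower beside 11.8% over all genes. The RNAs that rose in siMYCN were SCARNA7 (0.21) and SCARNA9 (0.27), guides of Cajal bodies, where spliceosomal RNAs are modified. SCARNA13, in the span of SNHG10, fell in siHAND2 (37.5 ± 0.422 to 27.6 ± 3.09 CPM, -0.43, limma adjusted p = 0.000133), and its siMYCN level was 39.0 ± 1.87 CPM (SD, n = 3 libraries each).

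SnoRNA genes were then set beside the genes that contain them. Of the 33, 24 lay within 1 gene on the same strand that passed the filter, 5 lay within several (SNORA73A and SNORA73B in RCC1 and SNHG3, SNORA74A in MATR3 and SNHG4, and SNORA48 and SNORD10 in EIF4A1 and 2 overlapping genes), and SNORD13 and the 3 U3 copies lay in none. In siMYCN 14 of the 24 hosts fell and 1 rose, where 11.4% of all genes were called as lower and 24.5% as higher. Of the snoRNAs in the 14 hosts, 2 fell (SNORA17B and SNORA59B) and 12 did not pass. In siHAND2 9 hosts fell and 3 rose (EP400, RPL32P3 and EIF4G2), where 11.8% of all genes were called as lower and 18.1% as higher. None of the snoRNAs in the 9 hosts that fell passed. The median log2 fold change of the 24 was -0.09 for the snoRNAs and -0.20 for the hosts in siMYCN, and 0.04 and -0.07 in siHAND2. The log2(CPM + 1) scale understates changes of low transcripts, so snoRNA and host medians are not on equal terms. The sign was the same in 17 of 24 pairs in siMYCN and in 13 of 24 in siHAND2.

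Pairs in ribosomal protein genes varied. RPL32, host of SNORA7A, fell by 0.54 on the log2 scale in siMYCN while SNORA7A stood at 0.02 (limma adjusted p = 0.962). RPS3, host of SNORD15B, changed by -0.50 beside -0.10 for SNORD15B (adjusted p = 0.667). RPL10 stood at -0.29 with SNORA70 at 0.24, and RPL23 at -0.51 with SNORA21B at -0.32. RPLP2 stood at -0.25 with SNORA52 at -0.39, so in this pair the snoRNA value was the lower. The log2(CPM + 1) scale understates changes near 1 CPM, so it shrinks the values of low snoRNAs more than those of abundant hosts. In CPM, SNORA21B stood at 60.5% of its siCTR mean in siMYCN, while RPL23 went from 861 to 604 CPM. SNORA7A stood at 101.2% of its siCTR mean. SNORA7A and SNORD15B were measured at 0.156 to 4.38 CPM, with standard errors of 0.17 to 0.22, and the difference between a snoRNA and its host was not tested. EIF4G2, host of SNORD97, was the only one of the 24 hosts that rose in siMYCN (0.25). Per 100 bases of span the snoRNA was above its host in 17 of 24 pairs, by a ratio of 0.0538 (SNORA21B in RPL23) to 282 (SNORD17 in SNX5) with a median of 5.06.

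**Figure D5:**
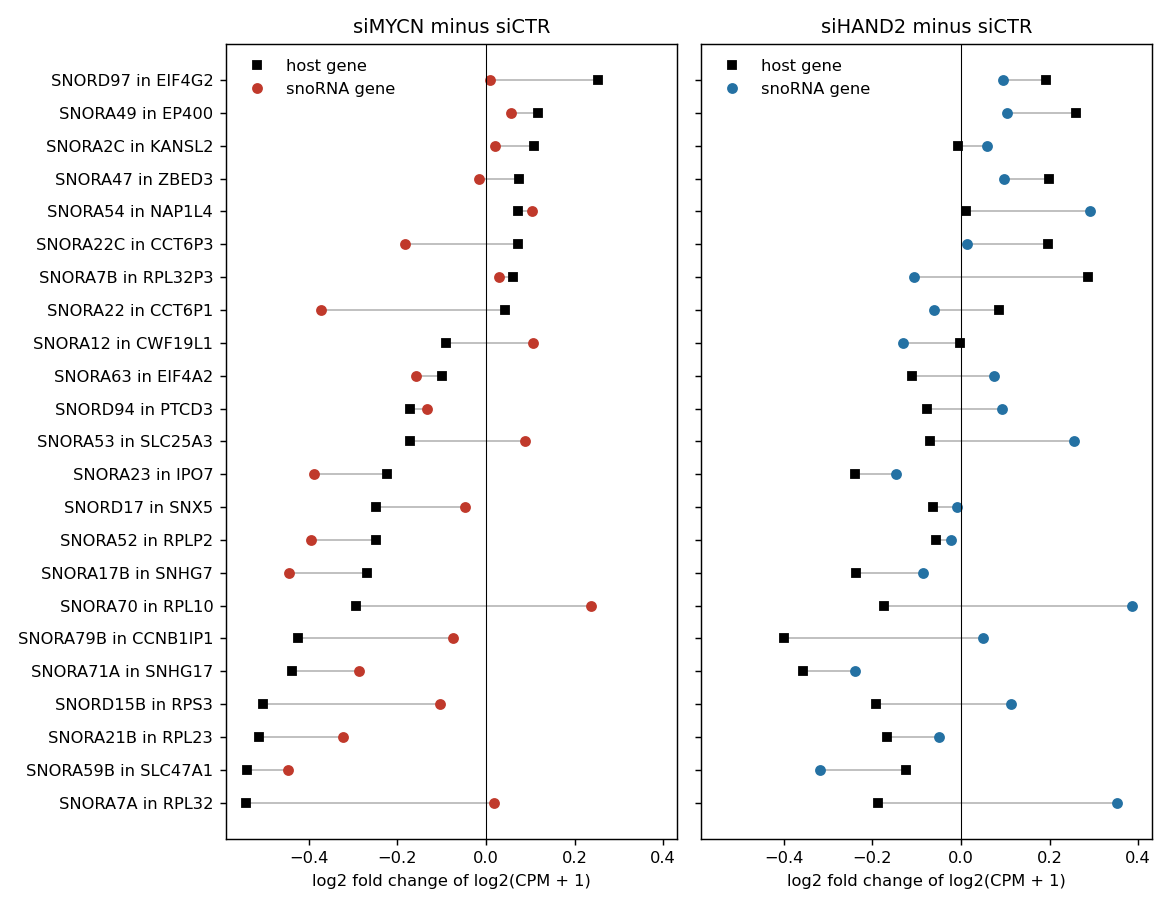
Rows are 23 of the 24 snoRNA genes with 1 host on the same strand, ordered by the host's change, and the x axis is the log2 fold change of log2(CPM + 1) for the host (squares) and the snoRNA (circles) in siMYCN (left) and siHAND2 (right). In the lower rows of the left panel the host lies at about -0.54 to -0.42 while several snoRNAs lie nearer 0, such as SNORA7A at 0.02. The log2(CPM + 1) scale draws the changes of transcripts near 1 CPM toward 0.

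Promoter sequences were examined for letters that MYC proteins are known to bind, CACGTG, and for the wider helix-loop-helix motif CANNTG, on both strands of the 300 bases from 250 before to 50 after the RefSeq start (GRCh38.p14). RefSeq held 20 of the 23 SNHG promoters. For several, the RefSeq start was not the start of the gene as deposited, such as SNHG12 (28581873 beside 28583132) and SNHG14 (24823608 beside 24978583). Their windows may not be the promoters of the transcripts measured. For SNHG7 and SNHG16 the starts were the same. CACGTG, which is itself 1 form of CANNTG, was found in 2 of the 20 (10.0%, SNHG7 and SNHG30), beside 7.3% of 35116 promoters, and CANNTG in 13 of 20 (65.0%), beside 68.7%. A match describes letters only. The 2 promoters below belong to SNHG genes that fell in both knockdowns, SNHG7 with a CACGTG 122 bases before the start (capitals) and SNHG16 without one in this window.
SNHG7, chr9:136728135-136728434, minus strand: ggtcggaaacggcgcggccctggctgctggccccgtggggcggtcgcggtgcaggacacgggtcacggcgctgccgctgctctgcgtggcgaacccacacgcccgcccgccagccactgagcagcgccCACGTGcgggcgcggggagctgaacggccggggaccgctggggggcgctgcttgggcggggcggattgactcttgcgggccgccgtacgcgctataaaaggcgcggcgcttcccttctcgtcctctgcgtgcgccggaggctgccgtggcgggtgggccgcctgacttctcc
SNHG16, chr17:76557514-76557813, plus strand: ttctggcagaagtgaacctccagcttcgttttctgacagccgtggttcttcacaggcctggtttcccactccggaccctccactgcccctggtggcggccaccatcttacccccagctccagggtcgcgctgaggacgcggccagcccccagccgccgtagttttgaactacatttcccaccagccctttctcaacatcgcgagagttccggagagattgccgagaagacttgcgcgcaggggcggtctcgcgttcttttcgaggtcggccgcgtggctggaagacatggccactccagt
A start at C followed by at least 4 pyrimidines, a letter pattern of transcripts whose translation follows growth signals, was present at the annotated start of 5 of the 20 promoters (25.0%: SNHG4, SNHG5, SNHG12, SNHG19 and SNHG32), beside 4.1% of all. Of these 5 genes, SNHG4 and SNHG5 fell in siMYCN and SNHG12, SNHG19 and SNHG32 did not pass there. SNHG5, SNHG12 and SNHG32 are among the genes whose RefSeq start differed from the deposited start.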

How the data were processed

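Total RNA of 9 LAN5 libraries, 3 each of siCTR, siMYCN and siHAND2, was compared. The authors deposited 1 table of CPM values with 1 column per library, which carry a constant of 1e-04. STAR 2.5.1 and Partek are named without a role per the submitters' processing notes, as are hg19 and GRCh37. The table's coordinates matched GRCh38 instead (18215 symbols shared with RefSeq GRCh38.p14, all on the same chromosome, 91.4% of starts within 5000 bases), so positions are given as GRCh38. How reads were counted, by strand or not, and how reads that fit several genes were treated are not given in the sources used here.

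Low CPM values were whole multiples of a smallest step (within 0.02) for 80.9% to 83.4% of values, too few for a count model, and the step gave only the depth. A gene needed 1 CPM or more in 3 or more of the 9 libraries (14495 did, and 10589 were left out). A linear model on log2(CPM + 1) with 1 mean per group was fitted over all 9 libraries with limma 3.58.1 (R 4.3.3, eBayes with a trend in intensity and 10.1 degrees of freedom in the prior). Two-sided p-values were adjusted over all genes tested by Benjamini-Hochberg, with a threshold of 0.05. Fold changes are on the log2(CPM + 1) scale. The fit was tested on simulated data. Errors are SDs over 3 libraries or limma's standard errors, and no batch or date is given.

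The members and lists were chosen with earlier results of these data known. Named are the SNHG genes that passed, the 6 SNORA and 6 SNORD genes with the highest mean CPM, the 3 largest called rises and falls of either class in each of the 3 contrasts, their hosts, and up to 8 genes per list. Genes named beside these (NOP56, NOP58, NOP10, GAR1, PHAX, COIL, EIF4A2, NAP1L4, the long noncoding hosts, the other short RNAs, host pairs in ribosomal protein genes and genes at the threshold) were chosen after their values were seen. A gene contained a snoRNA gene where its span held the snoRNA's span on the same strand, and the values of 1 such pair are not reported here. Alternatives were pseudocounts of 0.1 and 5, no filter or 1 of 5 CPM, quantile normalization, median-ratio rescaling, no trend, fits of 2 groups alone, a replicate block and each library left out, and, added after seeing the data, replicate 3 of all groups left out.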

Additional observations from a re-analysis of the deposited data

How the results depend on the processing

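Of 123 named gene results, 85 passed the test, 65 of these passed under every alternative in which the gene was tested, and none of the 85 changed sign. These counts are partly fixed by selection. Between the knockdowns only results that passed were included. The list genes were those with the smallest p, and some snoRNA genes were named because they passed. The filter of 5 CPM left out low genes such as SNHG25 and SNHG26. The counts for SNHG genes, other hosts and snoRNP protein genes against siCTR stayed within 1.5 times under all alternatives. The count of snoRNA genes called depended on single libraries and settings. In siMYCN against siCTR it was 7, 4 with no intensity trend, 3 to 12 with 1 library left out and 11 without replicate 3 of all groups. In siHAND2 against siCTR it was 2, and 1 with a pseudocount of 0.1, with no filter or with the 5 CPM filter, 1 to 4 with 1 library left out, and 6 without replicate 3 of all groups. In siHAND2 against siMYCN it was 1, 2 with no filter, 2 in the fit of the 2 groups alone, 0 with no intensity trend (SNORD3B-2 was then lost; by limma 3 of the 33 had an unadjusted p under 0.05 with the trend), 0 to 3 with 1 library left out and 2 without replicate 3 of all groups. In that comparison the SNHG count of 6 ranged from 3 to 7 with 1 library left out, and the snoRNP protein count of 3 was 6 with median-ratio rescaling and 8 with quantile normalization. The causes were not tested.

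Whether the replicate numbers pair the samples is not settled, and the main fit did not pair them. Over all genes tested, same-numbered deviations correlated at 0.17, 0.13 and 0.31 for replicate 1. The values were 0.08, 0.04 and -0.04 for replicate 2, and 0.18, 0.17 and 0.17 for replicate 3. Of the 9 libraries, 6 correlated best with their own number in both other groups. Over the 33 snoRNA genes alone the correlations were 0.45, 0.14 and 0.22 for replicate 1. They were 0.22, -0.07 and -0.23 for replicate 2, and 0.47, 0.13 and 0.50 for replicate 3. With a replicate block the snoRNA counts were 10, 6 and 7 in the 3 comparisons in the order above, and the snoRNP protein count between the knockdowns was 5. The block called 5 named genes in siHAND2 against siCTR that did not pass without it: SNORA73A (adjusted p = 0.00316), SNORA73B (0.00628), SNORD3A (0.0135), SNORD3B-1 (0.00506) and SNHG15 (0.0165).

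Sign changes were seen only in values that did not pass the test. With 1 library left out, they were in siMYCN SNHG14 (-0.034 to 0.10), SNHG21 (-0.20 to 0.10), SNHG30 (-0.13 to 0.066), SNORA63 (-0.43 to 0.074), SNORA79B (-0.21 to 0.060), SNORA47 (-0.25 to 0.23), SNORD17 (-0.19 to 0.14), SNORD97 (-0.19 to 0.26) and SNORD10 (-0.28 to 0.27), and in siHAND2 SNHG11 (-0.073 to 0.017), SNHG21 (-0.19 to 0.11), SNHG32 (-0.013 to 0.032), SNHG8 (-0.069 to 0.030), SNORA63 (-0.19 to 0.31), SNORA79B (-0.090 to 0.14), SNORA47 (-0.095 to 0.34), SNORA48 (-0.25 to 0.12), SNORD17 (-0.12 to 0.11), SNORD97 (-0.10 to 0.26) and SNORD10 (-0.18 to 0.33), each as lowest and highest value on the log2 scale. Under median-ratio rescaling the siMYCN values were SNHG14 -0.024, SNORD97 -0.048 and SNORD10 -0.028 and the siHAND2 value SNHG32 -0.039. Under quantile normalization they were SNORD97 -0.042 and SNORD10 -0.053, and SNHG32 -0.018. Without replicate 3 of all groups they were SNHG12 0.014, SNORA47 0.042, SNORD17 0.034 and SNORD10 -0.033 in siMYCN, and SNHG21 0.043, SNORA63 -0.093, SNORA79B -0.079, SNORD17 0.0042 and SNORD10 -0.13 in siHAND2.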
